A study of Mus musculus with 16 samples.

Results

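Bivalent chromatin carries H3K4me3, a mark of gene starts, together with H3K27me3, the mark left by Polycomb. Regions of H3K4me3 that were bivalent in wild-type (WT) mesoderm and not in WT endoderm numbered 1180 of 22291. CJ9 mouse embryonic stem cells, an established line, had been directed to endoderm or to mesoderm for 5 days and fixed for 8 min. The 2 genotypes were WT and arid4b-delta, the latter carrying a deletion in Arid4b, a gene whose protein belongs to the Sin3-HDAC complex, a histone deacetylase complex. H3K4me3, H3K27me3 and H3K27ac were profiled by ChIP-seq in both lineages of both genotypes, giving 12 peak lists with 1 library per group. The 4 input libraries were not analysed here. The labels name 1 line and do not say whether arid4b-delta is 1 clone or which part of the gene is missing.

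To find the regions, the WT endoderm and WT mesoderm H3K4me3 peaks were merged. A merged region was kept where it overlapped, by at least 1 bp each, an H3K4me3 and an H3K27me3 peak of WT mesoderm, and did not overlap both in WT endoderm. The regions were thus chosen by the peak calls of the 4 WT H3K4me3 and H3K27me3 lists, and those calls are given as a description. A further 1712 merged regions were bivalent in both WT lineages and 1529 in WT endoderm only. With no replicates, differences between lists carry no test here. Shares carry exact Clopper-Pearson 95% intervals, which cover counting error only. Depth is unknown, since peaks were deposited without read totals.

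In embryonic stem cells bivalent promoters belong largely to genes of development that are silent or little expressed. As cells differentiate, such a promoter may lose H3K27me3 and become active, with H3K27ac added, or lose H3K4me3 and stay under Polycomb. H3K4me3 is written by the MLL and SET1 enzymes and H3K27me3 by the EZH enzymes of Polycomb. In a bulk sample, the 2 marks on the same chromosome and the 2 marks in different cells of a mixture cannot be told apart. A region without a peak is one where the peak caller made no call, which also happens when a signal is low.

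The lists were of unequal size. WT mesoderm had the shortest H3K27me3 list, with 6150 peaks over 6.85 Mb, against 10326 in WT endoderm and 16660 and 9863 in arid4b-delta endoderm and mesoderm. The H3K4me3 lists held 22292 and 21752 peaks in WT endoderm and mesoderm, with median lengths of 476 and 639 bp, and 25272 and 26852 in arid4b-delta. Among the endoderm markers Sox17, Foxa2, Gata4 and Gata6, 0 of 4 had a promoter H3K27ac peak in any of the 4 lists, and 3 of 4 had H3K27me3 in WT endoderm. Of the mesoderm markers T, Mesp1, Kdr and Tbx6, 2 of 4 had H3K27ac in WT mesoderm and 0 of 4 in the other lists. The endoderm label is thus not borne out by H3K27ac at those markers.

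One block stood apart. At the start of the chromosome 9 assembly, 31 of the regions lay in a single WT mesoderm H3K27me3 peak, chr9:3000008-3038321, of 38314 bp and a fold enrichment of 1.01. Fold enrichment is the authors' ratio of a peak over its background, and here it is read only within a list. The H3K4me3 folds in that block were 1.30 to 1.49. All 31 regions had H3K27ac in all 4 lists, and 0 had H3K27me3 in either arid4b-delta list. On chromosome 9, 84 of 180 WT mesoderm H3K27me3 peaks (46.7%) had a fold below 1.2, against 1.97% of the peaks on the other chromosomes. Its cause was not tested, and values are given without it where it moves them.

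Over the lists as deposited, the mark missing in WT endoderm was H3K4me3 at most regions. Of the 1180 regions, 935 (79.2%, interval 76.8 to 81.5) had H3K27me3 and no H3K4me3 there. Another 209 (17.7%, 15.6 to 20.01) had H3K4me3 and no H3K27me3, or 178 of 1149 (15.5%) without the chromosome 9 block. The remaining 36 (3.05%) had neither mark. Over all merged regions, WT endoderm lists covered 81.1% with H3K4me3 and 20.9% with H3K27me3, and WT mesoderm lists 94% and 13.8%. Since these marks chose the regions, nothing is read from the shares themselves. The excess of the class without H3K4me3 depended on list length: with the WT H3K27me3 lists made equally long, 709 regions lacked H3K4me3 alone, 717 lacked H3K27me3 alone and 262 lacked both. Keeping H3K27me3 peaks with a -log10 q of at least 2 in both WT lists gave 150, 193 and 69.

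Length and strength are given by class, as a description, since the rule bears on length. Regions without endoderm H3K4me3 hold WT mesoderm H3K4me3 peaks alone, while those without endoderm H3K27me3 merge peaks of both WT lists. Regions without endoderm H3K4me3 were short, with a median length of 255 bp, against 820 bp for those without H3K27me3 (917 bp without the chromosome 9 block), 216 bp for those with neither and 812 bp for regions bivalent in both lineages. Their median WT mesoderm H3K4me3 fold was 5.04, at percentile 17.6 of that list. For regions without endoderm H3K27me3 it was 9.55, at percentile 51.6 (10.4 and 56.5 without the block), and for regions bivalent in both lineages 8.48, at percentile 45.1.

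**Figure D1:**
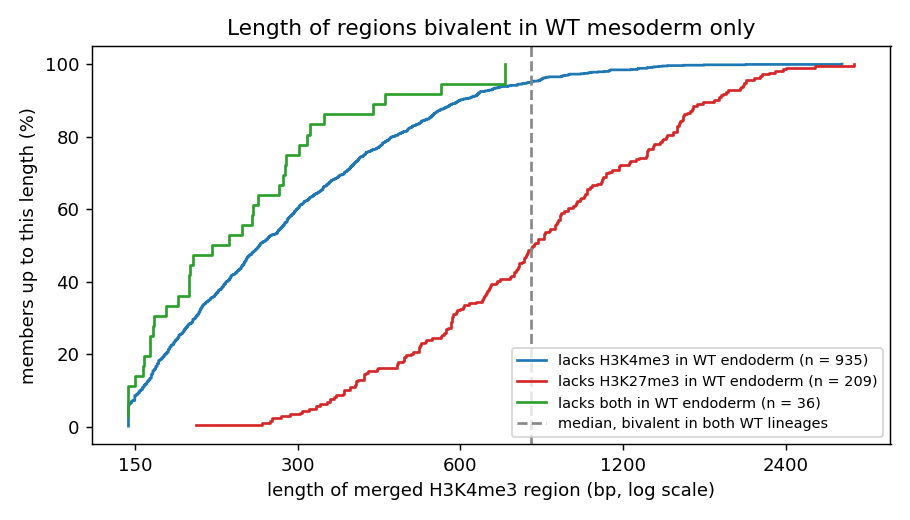
Cumulative share of regions (%) up to each length of the merged H3K4me3 region (bp, log scale), for the classes that lack H3K4me3 (935), H3K27me3 (209) or both (36) in WT endoderm. At 50% on the y axis, the curve of the class lacking H3K4me3 stands at 255 bp and that of the class lacking H3K27me3 at 820 bp, close to the dashed line at 812 bp, the median of regions bivalent in both WT lineages.

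Coverage by H3K27me3 is likewise a description, since these peaks chose the regions and a shorter region is more easily covered whole. H3K27me3 covered the whole region at 690 of the 935 (73.8%) without endoderm H3K4me3, from WT mesoderm peaks with a median length of 2140 bp. Among regions without endoderm H3K27me3 it covered the whole region at 45 of 209 (21.5%), or 14 of 178 (7.87%) without the chromosome 9 block, from peaks with a median length of 555 bp (488.5 bp without the block). The WT mesoderm H3K27me3 peaks were weak in general: 895 of the 1180 regions (75.8%) rested on a peak with a -log10 q below 2. Only 27 regions were overlapped by less than 50 bp of H3K27me3, and 228 of 18052 other regions with WT mesoderm H3K4me3 and no H3K27me3 overlap had such a peak within 200 bp.

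Regions without endoderm H3K4me3 could lie close to other endoderm H3K4me3. A WT endoderm H3K4me3 peak was found within 200 bp of 132 of the 935 (14.1%) and within 1000 bp of 337 (36.04%). At the other extreme, 457 (48.9%) had none within 5000 bp. Of these 935 regions, 319 (34.1%) shared their WT mesoderm H3K27me3 peak with a region bivalent in both lineages, against 9 of the 209 without endoderm H3K27me3 (4.31%, block included). A WT endoderm H3K27me3 peak lay within 1000 bp of 54 of those 209 regions (25.8%), or 54 of 178 (30.3%) without the block. All 1180 regions fell into 882 loci when neighbours within 5000 bp were joined, so regions of 1 locus are not independent. Single H3K27me3 domains held 6 regions at Lmx1b, 5 at Six3 and 4 each at Tbx1, Kcna1, Gdnf and Hoxb5 with Hoxb6.

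Regions were set against protein-coding gene starts, or against both ends of a gene where the RefSeq promoter table gave no start with its strand. Within 1000 bp lay 641 of the regions (54.3%), against 76.4% of all merged regions. The share was 51.2% in the class without endoderm H3K4me3 and 78.7% in the class without endoderm H3K27me3, the chromosome 9 block left out. More than 5000 bp from any start or end lay 252 (21.4%), against 14.2% of all merged regions. Without the chromosome 9 block it was 221 of 1149 (19.2%). Within a gene body lay 933 (79.1%), near the 78.4% of all merged regions. Exons and introns could not be told apart with the tables used. The regions touched 561 of 21887 genes, or 2.56%. At 185 of the 561 (33.0%), both marks were present in WT endoderm within 1000 bp of the same start or end, so there the region was bivalent in mesoderm only while the promoter was not.

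The start regions of 6 genes show what the underlying DNA looks like: these had the highest WT mesoderm H3K27me3 folds among the named genes of the 3 classes. Each line gives the 250 bases before the start, 5′ to 3′ on the gene's strand, from RefSeq on GRCm38.p6 (mm10), with every CG in capitals. The class on each line is that of the gene's region and not of the printed bases. CG-rich starts are the usual site of bivalent chromatin.
Lrrc73, without endoderm H3K4me3, chr17:46253915-46254164, plus strand: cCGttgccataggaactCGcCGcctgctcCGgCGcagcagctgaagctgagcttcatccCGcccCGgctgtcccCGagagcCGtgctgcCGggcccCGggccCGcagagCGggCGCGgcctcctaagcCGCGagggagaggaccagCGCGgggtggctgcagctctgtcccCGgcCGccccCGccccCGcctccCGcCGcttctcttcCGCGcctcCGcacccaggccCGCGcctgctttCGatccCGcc
Smad9, without endoderm H3K4me3, chr3:54755332-54755581, plus strand: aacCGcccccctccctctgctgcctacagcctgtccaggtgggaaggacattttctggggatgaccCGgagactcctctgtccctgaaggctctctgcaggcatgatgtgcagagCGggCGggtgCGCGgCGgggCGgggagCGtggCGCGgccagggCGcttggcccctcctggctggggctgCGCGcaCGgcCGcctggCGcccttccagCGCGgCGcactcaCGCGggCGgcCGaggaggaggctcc
Grin2c, without endoderm H3K4me3, chr11:115267244-115267493, minus strand: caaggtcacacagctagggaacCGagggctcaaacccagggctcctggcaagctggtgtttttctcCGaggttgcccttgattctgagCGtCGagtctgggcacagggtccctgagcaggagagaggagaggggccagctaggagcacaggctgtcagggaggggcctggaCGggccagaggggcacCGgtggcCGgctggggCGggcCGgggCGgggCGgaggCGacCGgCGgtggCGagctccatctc
Shc4, without endoderm H3K27me3, chr2:125724149-125724398, minus strand: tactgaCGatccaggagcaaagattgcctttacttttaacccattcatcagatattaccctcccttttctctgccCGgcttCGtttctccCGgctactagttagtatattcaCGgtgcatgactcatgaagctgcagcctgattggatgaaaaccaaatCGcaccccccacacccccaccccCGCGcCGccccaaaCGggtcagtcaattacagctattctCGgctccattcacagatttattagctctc
Tox3, without endoderm H3K27me3, chr8:90348253-90348502, minus strand: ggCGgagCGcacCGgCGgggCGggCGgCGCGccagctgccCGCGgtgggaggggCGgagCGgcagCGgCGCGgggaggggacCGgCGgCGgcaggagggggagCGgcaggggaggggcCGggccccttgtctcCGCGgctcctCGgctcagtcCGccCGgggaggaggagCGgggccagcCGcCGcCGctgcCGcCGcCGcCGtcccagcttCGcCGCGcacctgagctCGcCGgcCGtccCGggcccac
Aatk, without either mark in endoderm, chr11:120047146-120047395, minus strand: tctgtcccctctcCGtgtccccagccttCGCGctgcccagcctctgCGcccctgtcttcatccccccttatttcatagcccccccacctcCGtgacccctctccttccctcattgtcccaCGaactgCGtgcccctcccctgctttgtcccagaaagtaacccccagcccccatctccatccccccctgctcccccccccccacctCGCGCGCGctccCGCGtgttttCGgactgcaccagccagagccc

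The number of CG in these 250 bases ran from 11 at Shc4 to 40 at Tox3. WT mesoderm H3K27me3 covered all 250 bases at Grin2c and Aatk, 222 at Smad9 and 0 at Lrrc73, Shc4 and Tox3, where its peak lay beyond the start. The Tox3 region held all 250 bases in WT mesoderm H3K4me3, whereas the Smad9, Grin2c and Aatk regions began past the start. At Lrrc73 a WT endoderm H3K4me3 peak lay 115 bp from the region, and both marks were present at the promoter in WT endoderm. Over the 300-base windows of the promoter table, 250 before to 50 after the start, genes at the regions had a median of 24 CG, against 13 over all 17492 genes with a window and 26 at regions bivalent in both lineages. At least 10 CG were found at 90.4% of genes at the regions, 56.3% of all genes and 91.7% of genes at regions bivalent in both lineages. The letters TATAAA, searched on both strands, were in 6.75% of windows of genes at the regions and in 13.3% of all windows. At regions bivalent in both lineages they were in 7.66%. By class, the median number of CG was 23 without endoderm H3K4me3, 26.5 without H3K27me3 and 25 with neither.

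Genes of any list or family examined were 156 of the 561 (27.8%), against 6.54% of all genes. Patterning genes were among those of the class without endoderm H3K4me3, in which 126 of 391 genes with a full name belonged to some list or family. Among LIM, Pax, Nkx, Irx, Dlx and Six3-related homeobox genes, transcription factors that pattern the embryo, 21 of 53 lay at a region, and among Hox genes, which set position along the body axis, 15 of 39. All 36 of these genes were in the class without endoderm H3K4me3. The same held for the 7 of 23 paraxial and intermediate mesoderm genes, 8 of 28 neuroectoderm genes, 3 of 14 cardiac genes and 3 of 13 trophoblast genes. The class describes the region and not the whole promoter. Both marks were present at the promoter in WT endoderm at 5 of those 7 genes, 4 of those 8, 1 cardiac gene and 1 trophoblast gene. Neurotransmitter receptors gave 18 of 91, with 16 in that class, and solute carriers 8 of 337. The germline, Sin3-HDAC and fibroblast lists gave 0, and the housekeeping list 1 of 20, Tuba1b.

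**Figure D2:**
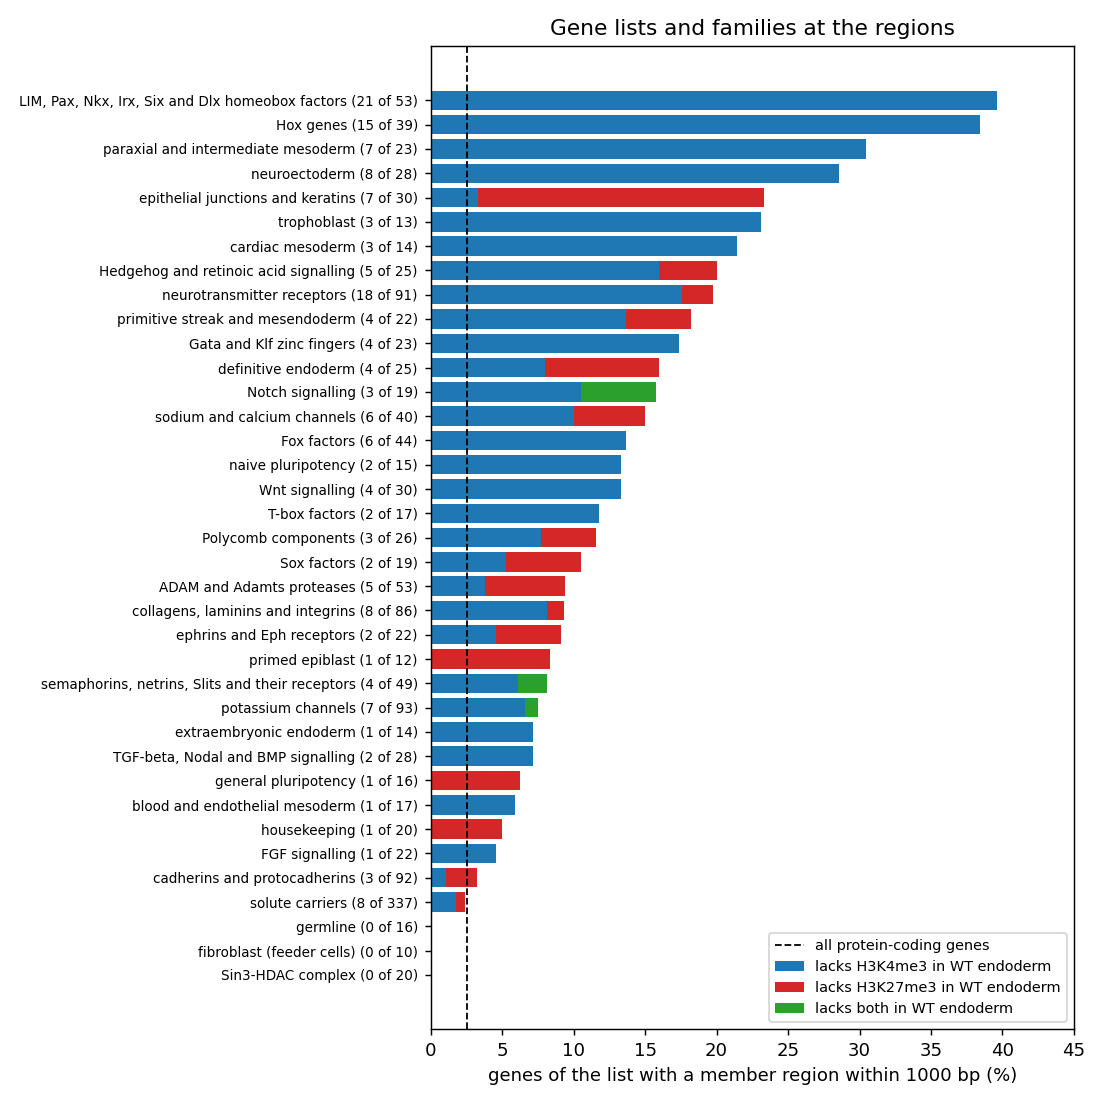
Share of the genes of each list or family (%) with a region bivalent in WT mesoderm only within 1000 bp, split by the mark missing in WT endoderm, with the counts beside each name and the dashed line at 2.56% for all protein-coding genes. A gene with regions of 2 classes is drawn in both colours. The homeobox (21 of 53) and Hox (15 of 39) bars are wholly the class without endoderm H3K4me3, while 6 of the 7 epithelial genes are in the class without endoderm H3K27me3.

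Among Hox genes, Hoxa13 (gene 15398, chr6:52260472-52260997) had a WT mesoderm H3K4me3 peak of fold 8.58 over its start. Its H3K27me3 folds were 2.32 in WT endoderm, 2.93 in WT mesoderm, 2.69 in arid4b-delta endoderm and 2.70 in arid4b-delta mesoderm. H3K4me3 was called in both arid4b-delta lists, with folds of 14.8 and 16.9, and the nearest WT endoderm H3K4me3 peak lay 38769 bp away. Hoxa2 (gene 15399, chr6:52163312-52164763) had H3K4me3 in WT mesoderm (7.27) and in arid4b-delta mesoderm (5.25) and in neither endoderm list. Thus H3K27me3 was present in every list at both genes and H3K4me3 varied. Across the 15 Hox genes, H3K27me3 was called in both arid4b-delta lists at 15, and H3K4me3 at 10 in arid4b-delta endoderm and 12 in arid4b-delta mesoderm. At Hoxb5 and Hoxd10, named for lacking H3K4me3 in arid4b-delta mesoderm, the WT mesoderm folds were 4.85 and 4.77.

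The 21 homeobox genes had H3K27me3 in both arid4b-delta lists at 21, and H3K4me3 at 20 in endoderm and 21 in mesoderm. Irx4 (gene 50916, chr13:73260410-73260716), an Iroquois factor expressed in the heart ventricle, had a WT mesoderm H3K4me3 fold of 5.92 and arid4b-delta folds of 9.38 in endoderm and 7.01 in mesoderm. Nkx2-1 (gene 21869, chr12:56536433-56536735), a factor of thyroid, lung and forebrain, had 3.17 in WT mesoderm, 10.3 in arid4b-delta endoderm and 6.21 in arid4b-delta mesoderm. Its WT mesoderm H3K27me3 peak spanned 10892 bp. No H3K27ac peak lay over any of the 21 regions in any list. At 5 of the 21 genes both marks were present at the promoter in WT endoderm.

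The mesoderm and streak lists had 14 genes in the class without endoderm H3K4me3 and 1, Nodal, in the class without endoderm H3K27me3. Of the 14, H3K27me3 was called at 14 in both arid4b-delta lists, and H3K4me3 at 13 in each. Foxc2, a factor of paraxial mesoderm, had it over the region in WT mesoderm alone. Both marks were present at the promoter in WT endoderm at 5 of the 7 paraxial and intermediate mesoderm genes, Foxc2 among them. This was also so at 1 of the 3 cardiac genes and 1 of the 4 streak genes, Nodal counted among the 4. The 4 genes that follow were chosen after their values were seen. Mesp1 (gene 17292, chr7:79792392-79793529), a factor of the first mesoderm and cardiac precursors, had H3K27me3 over the region in all 4 lists. The folds were 2.73 in WT endoderm, 1.95 in WT mesoderm, 3.79 in arid4b-delta endoderm and 1.89 in arid4b-delta mesoderm. In WT mesoderm the H3K27me3 peak (chr7:79791564-79792447, -log10 q 0.847) lay at the end of the region away from the start. No WT mesoderm H3K27me3 peak lay within 1000 bp of the Mesp1 start. Mesp1 H3K4me3 was called in WT mesoderm (7.55) and in arid4b-delta endoderm (5.53) and mesoderm (4.33). Wnt3a (gene 22416, chr11:59290389-59290774), a Wnt ligand needed for posterior mesoderm, had H3K4me3 folds of 7.55, 12.9 and 17.7 in those lists. Osr1 (gene 23967, chr12:9574460-9574880), a factor of intermediate mesoderm, had 7.05, 7.17 and 6.56. Gata2 (gene 14461, chr6:88198704-88198988), a factor of blood and endothelium, had 4.51, 11.4 and 12.9. For each of the 4 genes, WT endoderm was the only list without H3K4me3 over the region, and no list had H3K27ac there.

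Pdgfra, a growth factor receptor of paraxial mesoderm, differed in acetylation. Its region (gene 18595, chr5:75152243-75155295) had WT mesoderm H3K27ac with a fold of 5.57 and no H3K27ac in the other 3 lists. It was 1 of 45 genes of the hand-written lists in the class without endoderm H3K4me3, and the other 44 had no H3K27ac in any list. Its H3K4me3 fold was 9.05 in WT mesoderm, 7.26 in arid4b-delta endoderm and 7.64 in arid4b-delta mesoderm. A WT endoderm H3K4me3 peak lay 636 bp from it. Tbx1 (gene 21380, chr16:18591187-18591358), a factor of the pharyngeal region, was the converse: H3K4me3 over the region was called in WT mesoderm (4.35) and in no other list, and H3K27me3 in all 4. Of the 45 genes, H3K4me3 was called at 40 in arid4b-delta endoderm and 43 in arid4b-delta mesoderm, and H3K27me3 at 45 in both.

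Signalling and neuronal genes were also in the class without endoderm H3K4me3. Ihh (gene 16147, chr1:74951113-74951955), a Hedgehog ligand, had a WT mesoderm H3K4me3 fold of 4.60 and arid4b-delta folds of 9.75 in endoderm and 10.02 in mesoderm. Wnt2 (gene 22413, chr6:18030194-18030712), another Wnt ligand, had 6.22, 5.15 and 5.61. The NMDA receptor subunit gene Grin2c (gene 14813, chr11:115266946-115267104) had 3.38, 7.26 and 8.44, with H3K27me3 folds between 3.52 and 4.10 in the 4 lists. Smad9 (gene 55994, chr3:54755635-54755956), a BMP signal transducer, had 4.85, 8.48 and 6.22. These 4 regions had no H3K27ac in any list. Of the 16 neurotransmitter receptor genes of this class, 15 had H3K4me3 and 15 H3K27me3 in each arid4b-delta list.

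The class without endoderm H3K27me3 held 136 genes with a full name, 27 of them in a list or family. Of 30 genes of epithelial junctions and keratins, 6 were in it: Cldn7 and Ocln, which encode tight junction proteins, Marveld3, another tight junction gene, Grhl2, a transcription factor of epithelia, Esrp1, a splicing regulator of epithelia, and Spint1, a protease inhibitor of epithelia. Ovol1 was the only epithelial gene in the class without endoderm H3K4me3. Epcam and Cldn6, epithelial genes of the definitive endoderm list, and Fgf5 of the primed epiblast, Sox2 of pluripotency and Nodal of the streak list had the same layout. At these 11 genes, whose lists were grouped after their values were seen, H3K27ac was called at 11 in WT endoderm, 4 in WT mesoderm, 10 in arid4b-delta endoderm and 10 in arid4b-delta mesoderm. With H3K27ac lists of equal length they were 10, 4, 9 and 9. Over the 136 genes of the class the full lists gave 34, 31, 40 and 49. Over the 14 genes of the class in any hand-written list they gave 12, 6, 11 and 11, with Bmi1 and Dhrs3 lacking it in WT endoderm. H3K27me3 was called at 1 of 11 in arid4b-delta endoderm and 2 of 11 in arid4b-delta mesoderm. Other genes of the same lists were in the class without endoderm H3K4me3: Nkx2-1 and Tbx1 of definitive endoderm, and Eomes, Mesp1 and Wnt3a of the streak. Esrrb and Klf4 of the naive pluripotency list were in that class too. The layout of the 11 genes was thus not that of every gene at a region in the definitive endoderm and streak lists. In the epithelial list Ovol1 was the only exception. The general pluripotency and primed epiblast lists had 1 gene each at a region, Sox2 and Fgf5.

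Fgf5 (gene 14176, chr5:98253707-98255862), a growth factor of the epiblast, had H3K4me3 in all 4 lists, with folds of 12.6 in WT endoderm, 13.5 in WT mesoderm, 21.0 in arid4b-delta endoderm and 24.2 in arid4b-delta mesoderm. Its H3K27ac folds were 9.73, 13.3 and 15.2 in WT endoderm, arid4b-delta endoderm and arid4b-delta mesoderm, and no peak was called in WT mesoderm. H3K27me3 was called in WT mesoderm only among the 4 lists, with a fold of 3.29 over 228 bp. WT mesoderm was thus the list with H3K27me3 and without H3K27ac. Nodal (gene 18119, chr10:61418262-61419903), a TGF-beta family ligand of the streak, had the same calls, with H3K27ac folds of 11.8, 9.64 and 6.35 in those 3 lists and a WT mesoderm H3K27me3 fold of 1.70. Esrp1 (gene 207920, chr4:11386932-11389031) had H3K27ac folds of 13.9, 5.43 and 13.9 and a WT mesoderm H3K27me3 fold of 1.74. Cldn6 (gene 54419, chr17:23679373-23680557) had 12.4, 9.83 and 18.5, with a WT mesoderm H3K27me3 fold of 1.34. These 4 genes shared 1 pattern over the 12 lists.

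Tight junction genes had several patterns. Cldn7 (gene 53624, chr11:69965415-69967032) had H3K27ac folds of 5.61 in WT endoderm, 6.95 in arid4b-delta endoderm and 8.19 in arid4b-delta mesoderm, and H3K27me3 in both mesoderm lists, 2.51 in WT and 2.34 in arid4b-delta. Ocln (gene 18260, chr13:100551367-100553177) had H3K27ac folds of 4.09, 7.15 and 11.0 in the same lists, and H3K27me3 in WT mesoderm (2.36), arid4b-delta endoderm (1.75) and arid4b-delta mesoderm (3.86). Neither gene had H3K27ac in WT mesoderm. Marveld3 (gene 73608, chr8:109961605-109962263) had H3K27ac in WT endoderm alone (5.95), and its H3K27me3 was in WT mesoderm alone (2.02).

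Epcam, Grhl2, Spint1 and Sox2 carried H3K27ac in all 4 lists. Epcam (gene 17075, chr17:87636665-87637575), an adhesion molecule, had folds of 10.6 in WT endoderm, 4.62 in WT mesoderm, 22.1 in arid4b-delta endoderm and 20.9 in arid4b-delta mesoderm. Grhl2 (gene 252973, chr15:37232588-37234468) had 9.13, 5.79, 10.2 and 9.15. Spint1 (gene 20732, chr2:119236759-119238599) had 11.4, 7.90, 7.85 and 11.8. Sox2 (gene 20674, chr3:34648634-34649293) had 8.67, 7.76, 8.10 and 8.99. At these 4 genes WT mesoderm H3K27me3 and H3K27ac overlapped 1 merged region, and H3K27me3 was in no other list.

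The H3K27me3 calls behind these 11 genes were short and several were weak. Peak lengths in WT mesoderm ran from 146 bp at Epcam to 1177 bp at Ocln, and -log10 q values from 0.561 at Spint1 to 4.17 at Fgf5, with 2 of 11, Fgf5 and Ocln, at 2 or more. The nearest WT endoderm H3K27me3 peak lay 184 bp away at Cldn7, 1490 bp at Sox2, 1593 bp at Grhl2 and 2419 bp at Cldn6, and between 8075 bp at Marveld3 and 692205 bp at Esrp1 for the other 7. At Cldn7 and Sox2 both marks were present at the promoter in WT endoderm. Tuba1b, a housekeeping tubulin gene expressed in all cells, was in the class too, with H3K27ac in all 4 lists and a WT mesoderm H3K27me3 peak of fold 3.29 over 302 bp.

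**Figure D3:**
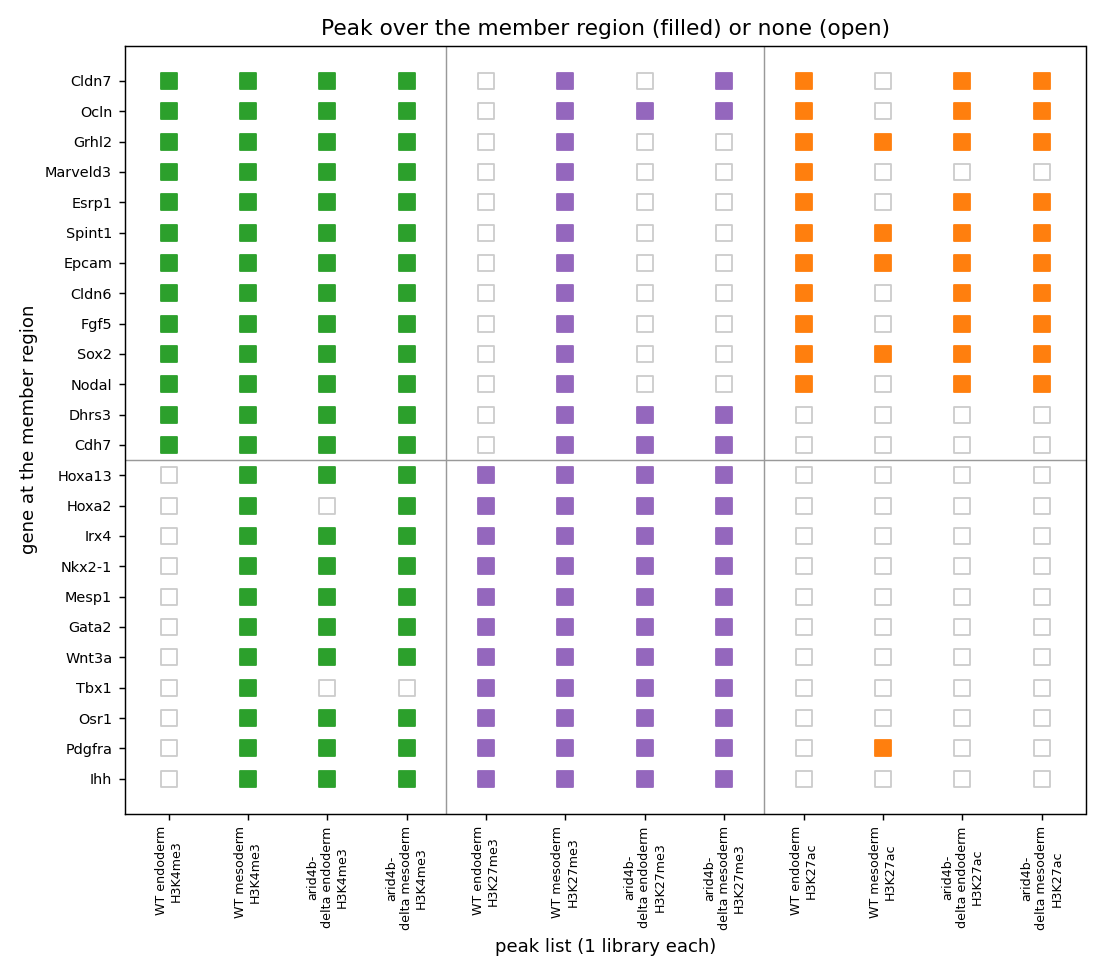
Calls over the region at 24 genes (rows, chosen after their values were seen) in the 12 peak lists (columns): a filled square is a peak over the region and an open square none. The 13 genes above the line lack H3K27me3 in WT endoderm and the 11 below it lack H3K4me3 there. At Fgf5, Nodal, Esrp1 and Cldn6 the H3K27ac square is open in WT mesoderm alone, and below the line Pdgfra has the one H3K27ac call.

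Over all regions, H3K27ac was called at 80 (6.78%) in WT endoderm and 80 (6.78%) in WT mesoderm, against 33.6% and 37.5% of all merged regions. Without the chromosome 9 block each count was 49 of 1149 (4.26%). In arid4b-delta it was called at 98 (8.31%) in endoderm and 107 (9.07%) in mesoderm, against 33.3% and 40.8%, or 67 (5.83%) and 76 (6.61%) without the block. Of the class without endoderm H3K4me3, 915 of 935 (97.9%) had no H3K27ac in any list, against 50.1% of all merged regions. Among regions bivalent in both WT lineages 85.0% had none, with H3K27ac at 5.55% in WT endoderm and 8.18% in WT mesoderm. In each arid4b-delta list it was at 10.5% of them. The class without endoderm H3K27me3, the chromosome 9 block left out, had H3K27ac at 44 of 178 (24.7%, interval 18.6 to 31.7) in WT endoderm, 37 (20.8%, 15.1 to 27.5) in WT mesoderm, 53 (29.8%, 23.2 to 37.1) in arid4b-delta endoderm and 64 (35.96%, 28.9 to 43.5) in arid4b-delta mesoderm. In that class 32 regions had H3K27ac in arid4b-delta mesoderm and not in WT mesoderm, and 5 the reverse. The arid4b-delta mesoderm H3K27ac list held 22747 peaks and the WT mesoderm list 12496. With the 4 H3K27ac lists made equally long, H3K27ac was at 80 regions (6.78%) in WT mesoderm and 54 (4.58%) in arid4b-delta mesoderm. Neither of these counts leaves out the chromosome 9 block, whose 31 regions are among the 80. A direction over all regions therefore cannot be read from them. In the class without endoderm H3K27me3, the block left out, the counts of 32 and 5 became 19 and 10.

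In the full arid4b-delta lists both marks were called at 954 (80.8%, interval 78.5 to 83.1) in arid4b-delta mesoderm and 870 (73.7%, 71.1 to 76.2) in arid4b-delta endoderm, against 21.1% and 21% of all merged regions. In the shortened lists described next these shares were 58.6% and 28.1%, and with 200 bp of overlap 52.5% and 44.8%. The first quartile of region length was 193.75 bp, and a region shorter than 200 bp cannot reach that overlap. In the full lists, the 2 lineages together gave 832 regions (70.5%) bivalent in both, 122 (10.3%) in mesoderm only, 38 (3.22%) in endoderm only and 188 (15.9%) in neither. Over all merged regions these shares were 17.9%, 3.26%, 3.15% and 75.7%. Without the chromosome 9 block, 157 of 1149 regions (13.7%) were bivalent in neither. Both marks were then at 83.0% in arid4b-delta mesoderm and 75.7% in arid4b-delta endoderm. Regions bivalent in both WT lineages had both marks at 96.5% in arid4b-delta mesoderm and 96.3% in arid4b-delta endoderm. These counts rest on lists of unequal length. With each arid4b-delta list shortened to the length of its WT mesoderm counterpart, keeping the strongest peaks, 267 regions (22.6%) were bivalent in both lineages, 424 (35.9%) in mesoderm only, 65 (5.51%) in endoderm only and 424 (35.9%) in neither.

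By class, and without endoderm H3K4me3 in WT, 780 of 935 regions (83.4%) had both marks in arid4b-delta endoderm and 857 (91.7%) in arid4b-delta mesoderm. Without endoderm H3K27me3, the chromosome 9 block left out, the counts were 76 of 178 (42.7%) and 77 (43.3%). With neither mark in WT endoderm, 14 and 20 of 36 had both.

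Taken singly, H3K4me3 was called in arid4b-delta endoderm at 787 of the 935 regions without it in WT endoderm (84.2%, interval 81.7 to 86.5), against 95.3% of all merged regions and 82.8% of the 3243 other regions that had no WT endoderm H3K4me3. The share at these regions is near that of the latter background. At 610 of the 787 (77.5%) the arid4b-delta endoderm peak reached no WT endoderm H3K4me3 peak. Of the 457 regions more than 5000 bp from any WT endoderm H3K4me3 peak, 396 (86.7%) had a peak in arid4b-delta endoderm and 431 (94.3%) in arid4b-delta mesoderm. In arid4b-delta mesoderm 866 of the 935 (92.6%) had H3K4me3, against 96.9% of all merged regions.

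H3K27me3 was called in arid4b-delta endoderm at 928 of those 935 regions (99.3%) and in arid4b-delta mesoderm at 924 (98.8%), against 22.6% and 22.1% of all merged regions. All 935 had it in both WT lists, as did regions bivalent in both WT lineages, where the shares were 96.6% and 97.0%. Where WT endoderm had no H3K27me3, it was called at 76 of 178 (42.7%, interval 35.3 to 50.3) in arid4b-delta endoderm and 77 (43.3%, 35.9 to 50.9) in arid4b-delta mesoderm, the chromosome 9 block left out. Regions bivalent in both WT lineages had it at 96.6% in arid4b-delta endoderm. Of 17395 other regions without WT endoderm H3K27me3, 5.03% and 4.55% had it in those lists. Those other regions mostly lacked H3K27me3 in WT mesoderm too, so the backgrounds differ from the class in more than 1 mark. H3K4me3 was called at 178 of 178 in both arid4b-delta lineages.

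**Figure D4:**
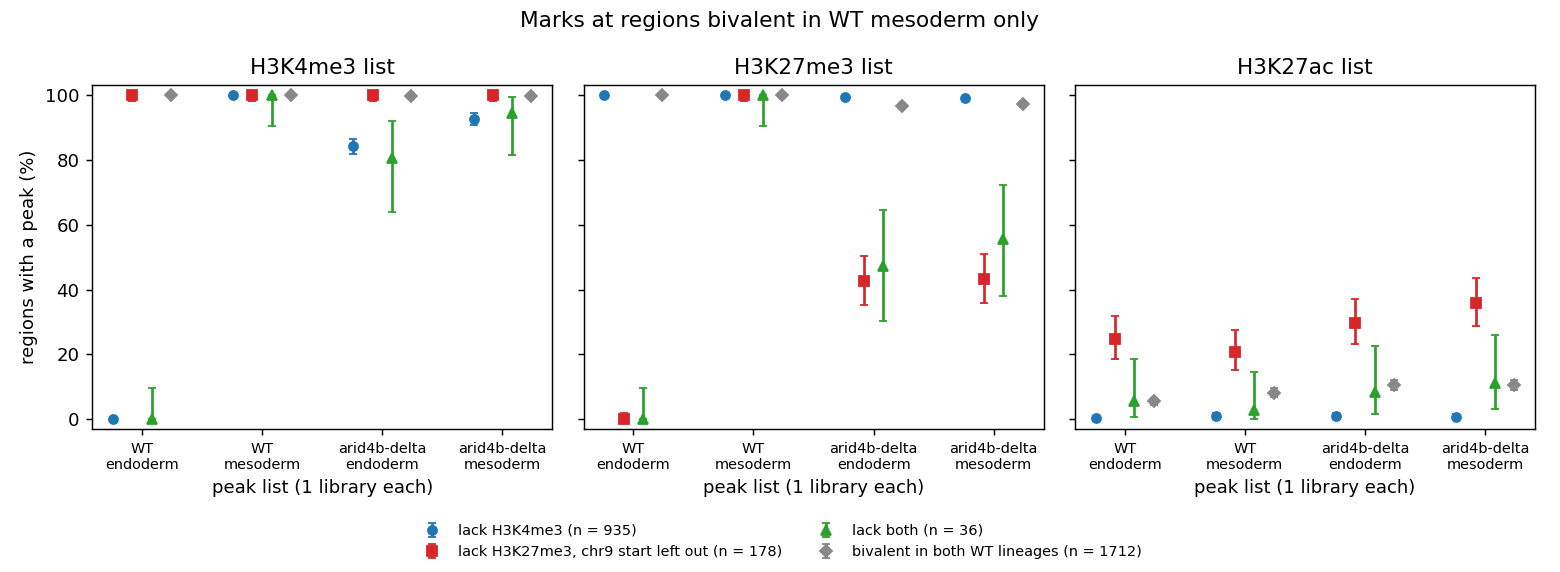
Share of regions with a peak (%, y axis) in each of the 4 peak lists of H3K4me3, H3K27me3 and H3K27ac, by class of missing mark and for regions bivalent in both WT lineages; points are shares and bars exact 95% intervals. WT values of H3K4me3 and H3K27me3 chose the classes. In arid4b-delta endoderm H3K4me3 is at 84.2% of the class that lacked it in WT, and H3K27me3 at 42.7% of the class that lacked it in WT.

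Single genes show other combinations in arid4b-delta. Shc4 (gene 271849, chr2:125722793-125724156), a signalling adaptor gene without endoderm H3K27me3 in WT, had H3K27me3 in WT mesoderm (4.33) and arid4b-delta endoderm (2.25) and none in arid4b-delta mesoderm, where H3K27ac was called with a fold of 5.78. Ehhadh (gene 74147, chr16:21787648-21787855), a peroxisomal enzyme gene, had H3K4me3 (4.24) and H3K27me3 (2.44) in WT mesoderm and no peak of the 3 marks in the other 3 conditions. Dhrs3 (gene 20148, chr4:144892241-144894227), a retinal reductase gene, and Cdh7 (gene 241201, chr1:109982766-109983131), a cadherin gene, shared their calls over the region. These were H3K4me3 in all 4 lists, H3K27me3 in all but WT endoderm, and no H3K27ac. At Cdh7 a WT endoderm H3K27me3 peak lay 423 bp away. The Cdh7 promoter had both marks in WT endoderm, and the Dhrs3 promoter did not. Celsr1, a planar polarity gene, had arid4b-delta H3K27me3 folds of 3.13 in endoderm and 8.53 in mesoderm, beside H3K27ac in WT mesoderm alone (5.86).

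The class with neither mark in WT endoderm was small and its regions short. Aatk (gene 11302, chr11:120046856-120047139), a kinase gene of the nervous system, had both marks in WT mesoderm, with folds of 6.87 for H3K4me3 and 4.30 for H3K27me3, and in both arid4b-delta lists. Rprm (gene 67874, chr2:54084572-54084717), a cell cycle regulator, had H3K27me3 in both arid4b-delta lists and H3K4me3 in arid4b-delta mesoderm. Jag2 (gene 16450, chr12:112928539-112928700), a Notch ligand, lay 169 bp from WT endoderm H3K4me3 and 205 bp from WT endoderm H3K27me3, and its promoter was bivalent in WT endoderm. A WT endoderm H3K27me3 peak lay within 1000 bp of 20 of the 36 regions and a WT endoderm H3K4me3 peak within 1000 bp of 12.

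Of the regions over 5000 bp from any gene start or end, 5 are named for their WT mesoderm H3K27me3 folds. The nearest starts or ends were those of Hoxa2 at 7941 bp (chr6:52172772-52173386), Nkx6-1 at 5535 bp, Grin2c at 17142 bp, Shank3 at 23872 bp and Dtnbp1 at 76731 bp. The regions of Hoxa2, Grin2c and Shank3 lay within a gene body. All 5 lacked H3K4me3 in WT endoderm and had both marks in both arid4b-delta lists. The region 7941 bp from Hoxa2 had an H3K4me3 fold of 8.96 in WT mesoderm, 3.42 in arid4b-delta endoderm and 11.5 in arid4b-delta mesoderm, with H3K27me3 in all 4 lists.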

How the data were processed

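Peak lists of 12 ChIP libraries (3 marks, 2 lineages, 2 genotypes) were used. The submitters' processing notes name Bowtie2, Picard and MACS2, and build mm10. Versions and settings are not given in the sources used here. The authors deposited H3K27me3 in broad and the other 2 marks in narrow format, with 1 list per library. In each deposited list, column 5 is the authors' score, column 7 the authors' fold enrichment, a ratio over background, and columns 8 and 9 hold deposited -log10 p values and -log10 q values. In the narrow lists the deposited column 10 is the authors' summit offset in bp, in another unit. Scores, -log10 p and summits were not used further.

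Merging and overlaps (at least 1 bp, chromosomes 1 to 19, X and Y) were computed in Python 3.11.15 with pandas 2.3.3, and intervals with scipy 1.17.1. Overlap and interval code was tested on simulated data. Gene starts came from RefSeq promoter windows of GRCm38.p6 (17492 genes, 21263 starts). For 4395 other protein-coding genes, whose table gives no strand, both ends were used. The 22 hand-written gene lists and 15 families set by symbol matched all entries but Oct6, Cripto and Fam60a.

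The regions and lists were chosen with earlier results of these data known. Genes were named by rule, ranked by the WT mesoderm H3K27me3 fold, among regions within 1000 bp of a gene: up to 30 listed genes, 8 per class of missing mark, 5 per class without H3K27me3 and 5 without H3K4me3 in arid4b-delta mesoderm, 8 with WT mesoderm H3K27ac, 5 with arid4b-delta H3K27ac, and 5 regions over 5000 bp from any gene start or end. Regions at the start of chromosome 9 (first base below 3050000) and predicted symbols were not named. The following were chosen after their values were seen: Osr1, Ocln, Pdgfra, Nkx2-1, Sox2, Wnt3a, Mesp1, Epcam, Ovol1, Dhrs3, Esrp1, Nodal, Cdh7, Gata2, Spint1, Cldn6, Marveld3, Foxc2, Bmi1, Eomes, Klf4 and the genes of domains with several regions.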

Additional observations from a re-analysis of the deposited data

How the results depend on the processing

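No paired analysis was possible because each group holds 1 library, and for the same reason no library could be left out. The number of regions ranged from 285 to 1688 over 13 settings, against 1180. The share lacking only H3K27me3 in WT endoderm ranged from 8.63% to 46.8%, against 17.7%, and exceeded that lacking only H3K4me3 under 2 of them (717 against 709 regions with equally long WT H3K27me3 lists, 193 against 150 with -log10 q of at least 2). Both marks in arid4b-delta mesoderm ranged from 52.5% to 93.7%, against 80.8%, and in arid4b-delta endoderm from 28.1% to 93.3%, against 73.7%. The causes were not tested. Weak H3K27me3 peaks, list lengths and regions close to a neighbouring peak thus limit these counts, and depth is unknown.

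Values that moved beyond the 95% interval of the reported value, or for a count by over 1.5 times, were as follows, with mutant standing for arid4b-delta. Settings that concern chromosome 9, the fold of 1.2 and the promoter table were chosen after the data were seen. Asking for 200 bp of overlap in the WT lists gave 89.1% with H3K27me3 in mutant mesoderm, both marks at 87.6% in mutant mesoderm and 82.6% in mutant endoderm and 58.7% near a gene. Counting a WT endoderm peak within 1000 bp as present gave 781 regions, 20.4% lacking H3K27me3, 83.2% with H3K27me3 in mutant mesoderm, both marks at 77.3% in mutant mesoderm and 70.04% in mutant endoderm and H3K27ac at 9.22% in WT endoderm, 8.71% in WT mesoderm, 10.6% in mutant endoderm, 11.7% in mutant mesoderm. Keeping WT H3K27me3 peaks with -log10 q of at least 2 gave 412 regions, 46.8% lacking H3K27me3, H3K27ac at 11.7% in WT endoderm, 12.1% in WT mesoderm, 12.4% in mutant endoderm, 14.3% in mutant mesoderm and 58.7% near a gene. Keeping only such peaks in WT mesoderm and all in WT endoderm gave 285 regions, 23.2% lacking H3K27me3, 80.0% with H3K27me3 in mutant mesoderm, both marks at 74.7% in mutant mesoderm and 66.7% in mutant endoderm, H3K27ac at 14.4% in WT endoderm, 14.7% in WT mesoderm, 15.4% in mutant endoderm, 16.1% in mutant mesoderm and 50.2% near a gene. Keeping the upper 50% of each WT list gave 336 regions, 36.3% lacking H3K27me3, 88.7% with H3K27me3 in mutant mesoderm, both marks at 88.7% in mutant mesoderm and 87.8% in mutant endoderm, H3K27ac at 9.52% in WT mesoderm, 13.1% in mutant mesoderm and 86.3% near a gene. Making the WT H3K27me3 lists equally long gave 42.5% lacking H3K27me3, 89.4% with H3K27me3 in mutant mesoderm, both marks at 85.1% in mutant mesoderm and 80.1% in mutant endoderm and 60.7% near a gene. Keeping WT peaks of at least 500 bp gave 730 regions, 8.63% lacking H3K27me3, 93.7% with H3K27me3 in mutant mesoderm, both marks at 93.7% in mutant mesoderm and 93.3% in mutant endoderm, H3K27ac at 3.97% in WT endoderm, 4.38% in WT mesoderm, 4.93% in mutant endoderm, 6.16% in mutant mesoderm and 77.3% near a gene. Merging WT H3K4me3 peaks across 1000 bp gave 619 regions, 26.01% lacking H3K27me3, 82.7% with H3K27me3 in mutant mesoderm, H3K27ac at 11.3% in mutant mesoderm and 62.7% near a gene. Asking H3K27me3 to cover 50% of the region gave 9.72% lacking H3K27me3, 92.7% with H3K27me3 in mutant mesoderm, both marks at 86.6% in mutant mesoderm and 78.2% in mutant endoderm, H3K27ac at 4.24% in WT endoderm, 4.45% in WT mesoderm, 5.17% in mutant endoderm, 5.17% in mutant mesoderm and 51.1% near a gene. Cutting arid4b-delta lists to the WT mesoderm length gave 67.3% with H3K27me3 in mutant mesoderm and both marks at 58.6% in mutant mesoderm and 28.1% in mutant endoderm. Counting arid4b-delta peaks within 1000 bp gave 89.7% with H3K27me3 in mutant mesoderm and both marks at 88.6% in mutant mesoderm and 85.3% in mutant endoderm. Asking for 200 bp of overlap in the arid4b-delta and H3K27ac lists gave 57.8% with H3K27me3 in mutant mesoderm, both marks at 52.5% in mutant mesoderm and 44.8% in mutant endoderm and H3K27ac at 6.61% in mutant endoderm. Regions shorter than 200 bp were kept there and cannot reach that overlap. Making the H3K27ac lists equally long gave H3K27ac at 3.56% in WT endoderm, 4.07% in mutant endoderm, 4.58% in mutant mesoderm. A promoter window of 500 bp gave 43.2% near a gene. A promoter window of 2500 bp gave 71.1% near a gene. Leaving out the start of chromosome 9 gave 15.5% lacking H3K27me3, 88.9% with H3K27me3 in mutant mesoderm and H3K27ac at 4.26% in WT endoderm, 4.26% in WT mesoderm, 5.83% in mutant endoderm, 6.61% in mutant mesoderm. Leaving out chromosome 9 gave 15.1% lacking H3K27me3, 89.1% with H3K27me3 in mutant mesoderm, both marks at 83.2% in mutant mesoderm and H3K27ac at 4.29% in WT endoderm, 4.196% in WT mesoderm, 5.89% in mutant endoderm, 6.696% in mutant mesoderm. Keeping WT mesoderm H3K27me3 peaks of fold 1.2 or more gave 14.7% lacking H3K27me3, 89.5% with H3K27me3 in mutant mesoderm, both marks at 83.6% in mutant mesoderm and H3K27ac at 4.27% in WT endoderm, 4.18% in WT mesoderm, 5.78% in mutant endoderm, 6.58% in mutant mesoderm. Using only starts of the promoter table gave 41.3% near a gene.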

Other observations

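Precursor hairpins of 12 of 1005 microRNAs (1.19%) lay within 2000 bp of a region bivalent in WT mesoderm only. Mir375, Mir9-1 and Mir10b are shown, chosen after their values were seen. The Mir375 gene is known from endocrine cells, Mir9-1 from neural development, and Mir10b lies in the Hoxd cluster. These reasons concern the genes and not the arm of the hairpin that is printed. The mature 5p sequence of each follows from RefSeq on GRCm38.p6, with the seed, bases 2 to 8, in capitals. The 3 seeds differ, and the 3p arms are not shown.
mmu-miR-375-5p: gCGACGAGccccucgcacaaac
mmu-miR-9-5p: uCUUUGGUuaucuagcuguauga
mmu-miR-10b-5p: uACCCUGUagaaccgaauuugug

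At Mir375 a region of 210 bp (chr1:74900554-74900763) lay over the hairpin. It had no H3K4me3 in WT endoderm, a fold of 4.78 in WT mesoderm, and 11.7 and 9.62 in arid4b-delta endoderm and mesoderm. H3K27me3 was called there in all 4 lists, at 2.02 and 2.54 in WT endoderm and mesoderm and 2.89 and 2.64 in arid4b-delta. The Mir9-1 hairpin had regions 116 bp and 693 bp away with the same calls, and H3K4me3 folds of 5.79 and 6.62 in WT mesoderm. The Mir10b hairpin, in the Hoxd cluster, had a region 1118 bp away (chr2:74727255-74727861), with H3K4me3 folds of 4.53 in WT mesoderm, 4.24 in arid4b-delta endoderm and 8.18 in arid4b-delta mesoderm. None of these regions had H3K27ac in any list.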
